A study of Sorghum bicolor with 9 samples.

Results

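Universal stress proteins and GRAM-domain proteins are encoded by 42 of the 35281 genes in the deposited table of sorghum leaf transcripts. These members were chosen by the family label that the table gives each gene, 28 with the label Usp and 14 with the label GRAM, where 11025 genes carry 1 of 636 labels. The 2 labels were themselves selected with earlier results of the same libraries known, Usp on the contrast of severe stress against control and GRAM on the contrast of moderate stress against control. The values of those 2 combinations of label and contrast are therefore descriptions with no test. The other contrasts share libraries with the selecting one, so their tests are not independent support for either label.

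RNA was taken from leaves of wild-type plants of Sorghum bicolor BTx623, an inbred line whose genome serves as the reference for the species, at the four-leaf stage. Control plants grew under conditions that the labels call normal, moderately stressed plants in saline-alkali soil with a salt content of 3‰, and severely stressed plants in saline-alkali soil with 5‰, both at pH 8.1. These values follow titles and design text; another tag writes percent in place of ‰. No source used here gives these values for the control soil. Each group held 3 biological replicates, which makes 9 libraries, and nothing but the soil is labelled as different between them.

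Universal stress proteins are small proteins named after UspA of Escherichia coli, a protein that accumulates when the bacterium stops growing or is stressed. Many bind ATP, and in plants the same domain occurs alone or joined to a protein kinase domain, with transcripts that often respond to drought, salt, heat or low oxygen. The GRAM domain is a short module first recognised in glucosyltransferases, Rab-like GTPase activators and myotubularins, and it binds phosphoinositide lipids of membranes. In Arabidopsis, plant proteins built around it include GEM, which acts in epidermal cell division and patterning, and relatives whose transcripts respond to abscisic acid, the hormone of drought and salt responses. The table pairs the sorghum genes with these labels and not with single names, so the members are given by their gene IDs and no individual role is assigned.

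Assigned reads totalled 17792497 to 22449989 per library, and the 3 counts that an observed 0 leaves possible equal 0.134 to 0.169 CPM, counting error alone considered. CPM are a gene's reads as a share of its library, and the levels given are CPM normalised by TMM, a scaling that assumes most genes do not differ between libraries. A gene is called where its adjusted p is under 0.05 in edgeR's quasi-likelihood test over 22356 genes. The assumption was not tested, and in severe against control 31.6% of tested genes were called higher and 34.9% lower. The scaling factors were 0.904 to 1.02 in control, 1.33 to 1.41 in moderate and 0.512, 0.858 and 0.973 in severe replicates 1 to 3. Severe replicate 1 stands apart by its factor, for a reason that was not tested, and its part in the results was examined only by fits without it. It holds the highest of the 3 severe values in 14 of 23 tested Usp members and 7 of 12 tested GRAM members. Replicate 1 was also the highest of its group in 11 Usp members in control and 10 in moderate, and in 7 GRAM members in each. The GRAM count is thus not particular to severe libraries, and the share over all tested genes was not counted. Where leaving out severe replicate 1 moves a printed severe mean by over 1.5 times, the value without it is given as well. The leaf label was not checked, since 0 genes carry the labels fixed for photosynthesis proteins (Chloroa_b-bind, RuBisCO_small and PEPcase).

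Of the 28 Usp members 23 had enough reads for the test, 2 were removed by the filter on low counts (Sobic.003G373900 and Sobic.009G146700) and 3 had no count in any library (Sobic.001G173700, Sobic.001G228000 and Sobic.008G124301). Of the 14 GRAM members 12 were tested and 2 were removed (Sobic.004G225800 and Sobic.002G231000). The filter needs 3 libraries above about 0.487 CPM, equal to 10 counts at the median total. In 4 Usp members (Sobic.001G239601, Sobic.K013100, Sobic.004G314400 and Sobic.003G252300) the libraries above that level were all severe ones. Those members entered the test through the group in which they are high and had to differ. Sobic.001G212000 (GRAM) and Sobic.009G061200 (Usp) were above that level in no control library, and Sobic.001G397200 (Usp) in no severe one. Their differences from those groups are descriptions. Counts over the tested members therefore describe them and support nothing about all 42.

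The summed level of both labels was higher in every severe library than in any other. The Usp members together held 317, 295 and 259 CPM in the control replicates, 498, 351 and 397 CPM in the moderate and 4833, 2248 and 1722 CPM in the severe. The GRAM members held 105, 99.99 and 90.2 CPM in control, 224, 193 and 183 CPM in moderate and 2510, 818 and 723 CPM in severe. For both sums the moderate libraries also all lay above the control ones, and no groups overlapped. The size of the severe excess depends on the scaling. With total counts the Usp sums were 263 to 299 CPM in control, 494 to 667 CPM in moderate and 1673 to 2470 CPM in severe libraries. The GRAM sums were then 91.6 to 101, 244 to 301 and 702 to 1283 CPM, so severe exceeded moderate by less for both labels. As leaves were sequenced in bulk, fewer cells with a transcript and less of it per cell cannot be told apart in any of these values.

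One member made up much of each severe sum. Sobic.008G124400 supplied 15.4% to 18.6% of the Usp sum in control, 31.1% to 40.7% in moderate and 64.8%, 56.9% and 47.2% in severe replicates 1 to 3. Without it the Usp sum was 258, 244 and 219 CPM in control, 295, 239 and 274 CPM in moderate and 1701, 968 and 910 CPM in severe, so that control and moderate then overlapped while severe stayed above both. Sobic.008G095000 supplied 17.0% to 19.8% of the GRAM sum in control, 10.8% to 11.3% in moderate and 67.1%, 59.1% and 47.4% in severe. Without it the GRAM sum was 85.8, 80.2 and 74.9 CPM in control, 199.7, 173 and 162 CPM in moderate and 825, 334 and 381 CPM in severe, and the 3 groups still did not overlap.

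**Figure D1:**
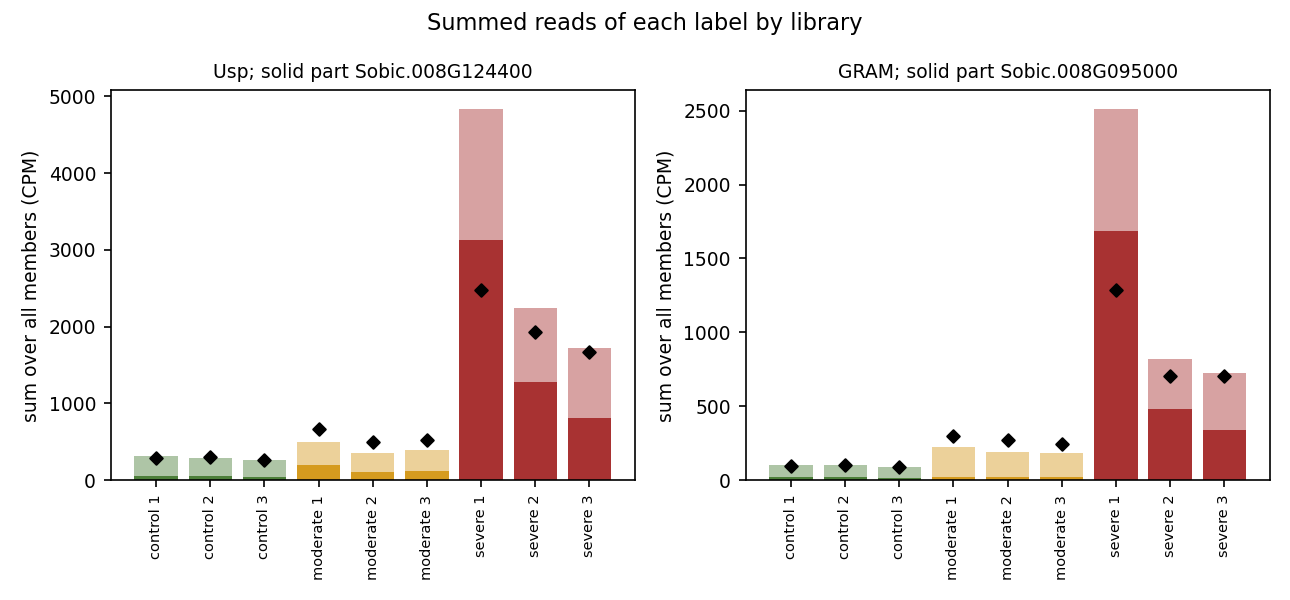
Summed normalised CPM of all members of each label in each of the 9 libraries, on a y axis starting at 0. Solid bar parts are the member with the highest severe level (Sobic.008G124400 or Sobic.008G095000), pale parts the other members, and diamonds the same sum scaled by total counts only; the severe bars are the tallest for both labels under both scalings, and severe replicate 1 is the tallest of all.

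Levels between genes were compared per length, on the FPKM scale that the authors deposited (fragments scaled to gene length and to a size for each library). The size that these FPKM imply was 0.444 to 1.46 times the library's total count. Differences in FPKM between groups therefore depend on that scaling too. The 23 Usp members had a median group mean of 1.62 FPKM in control, where the highest reached 23.8 FPKM, of 2.21 FPKM in moderate and of 10.5 FPKM in severe, where the highest reached 894 FPKM, or 491 FPKM without severe replicate 1. The 12 GRAM members had medians of 2.17 FPKM, 6.72 FPKM and 11.4 FPKM in the same order, with highest values of 10.8, 13.6 and 308 FPKM, the last 137 FPKM without severe replicate 1. In control 10 of the 23 Usp members lay under 1 FPKM. Under severe stress the next highest levels were 101 FPKM for Usp (Sobic.009G052600) and 167 FPKM for GRAM (Sobic.001G212000; 74.4 FPKM without severe replicate 1).

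**Figure D2:**
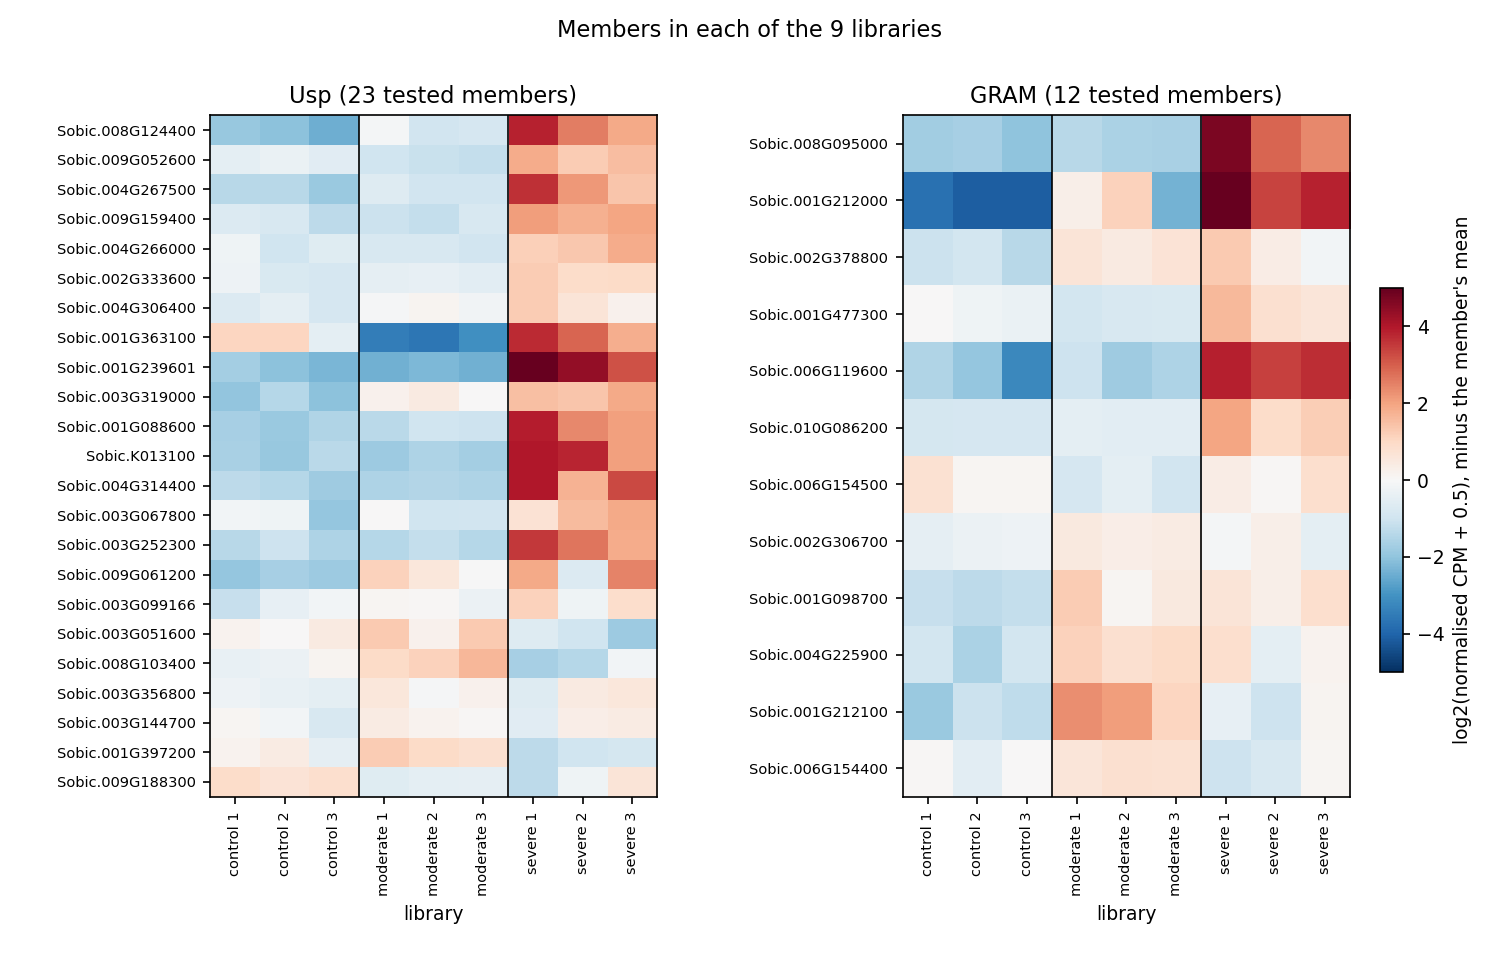
Heat map of the 35 tested members (rows, by label) in the 9 libraries (columns), coloured by log2(normalised CPM + 0.5) minus the member's mean over the libraries, with colours limited at 5 on either side (2 cells lie beyond). In 17 of 23 Usp rows the severe mean is the highest, and in 5 of 12 GRAM rows the moderate mean is.

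In both labels the highest group mean was most often in severe libraries. Among the 23 Usp members it was severe in 17, moderate in 5 and control in 1, and among the 12 GRAM members severe in 7, moderate in 5 and control in 0. Over all 22356 tested genes the highest mean was in control for 32.3%, in moderate for 27.5% and in severe for 40.2%. Because the severe and moderate libraries helped to select the labels, these counts are descriptions.

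Moderate against control, Usp. In moderately saline soil 2 of 23 universal stress genes rose, 1 fell and 20 were not called. Of all tested genes 8.94% rose and 8.17% fell, so the Usp share is near the background. The median log2 change was 0.55 in the Usp members and 0.015 in all tested genes, or 1.04 against 0.49 with total counts as scaling, and 13 of 23 changes were above 0. Which of them pass depends on the setting, and so does the background. With total counts as scaling 6 Usp members rose and 1 fell, beside 16.6% and 3.15% of all tested genes. With the 6 libraries compared fitted alone 7 rose and 3 fell, beside 22.8% and 22.2%, and with DESeq2 4 rose and 2 fell, beside 12.2% and 11.6%.

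Coordinates here and below are those of the deposited table, which names no genome build. Sobic.003G319000 (chr3:64651869-64656143, minus strand) was higher in moderate than in control libraries and highest in severe ones. It had 3.28, 5.02 and 3.08 CPM in control, 16.6, 19.5 and 14.2 CPM in moderate and 40.8, 37.7 and 53.6 CPM in severe libraries. No groups overlapped. The log2 change was 2.14 (SE 0.50, adjusted p = 0.00238) from control to moderate and 1.39 (SE 0.40, adjusted p = 0.0016) from moderate to severe, the latter not called when libraries were scaled by total counts (0.62, with adjusted p over the alternatives from 1.41e-07 to 0.184).

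Sobic.009G061200 was nearly silent in control, with 0, 2 and 1 counts in replicates 1 to 3, and had 3.78, 2.32 and 1.37 CPM in moderate libraries. Pooled over the group it had 3 counts in control and 201 in moderate, so moderate was 46.7 times control (95% interval for counting error 15.8 to 228). The ratio was 92.8 without control replicate 2. The gene's call against control is a description, as no control library passed the filter, and it was lost without control replicate 1 or 3. In severe libraries it had 6.67, 0.694 and 10.2 CPM, a mean of 5.87 CPM that was 3.68 CPM without severe replicate 3, so it overlapped with moderate.

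Sobic.001G363100 (chr1:65244565-65245928, plus strand) had its lowest level in moderate soil. It had 16.4, 16.4 and 5.36 CPM in control, 0.249, 0.168 and 0.468 CPM in moderate and 108, 60.6 and 28.4 CPM in severe libraries. The 3 groups did not overlap, and the order was moderate, control, severe. The log2 change from control to moderate was -5.39 (SE 1.28, adjusted p = 0.00258) and that from moderate to severe was 7.76 (SE 1.64, adjusted p = 7.51e-05).

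Sobic.009G052600 (chr9:5329668-5332584, minus strand), among the 3 Usp members with the highest FPKM, had the same order of groups. Its levels were 66.5, 73.7 and 62.1 CPM in control, 47.1, 43.1 and 40.5 CPM in moderate and 339.9, 228 and 272 CPM in severe libraries. The groups did not overlap, but the log2 difference of moderate from control, -0.63 (SE 0.27), was not called (adjusted p = 0.0793, and 0.0049 to 0.696 over the alternatives). From moderate to severe the gene rose by 2.68 (SE 0.54, adjusted p = 4.47e-05).

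Sobic.008G124400 (chr8:54765630-54767748, minus strand), the Usp member with the highest mean CPM in moderate and in severe libraries, had 59.1, 51.7 and 39.9 CPM in control and 202, 112 and 123 CPM in moderate libraries. These groups did not overlap, and the log2 difference of 1.54 (SE 0.62) was not called (adjusted p = 0.0654) but was in 6 of 15 alternative settings, with adjusted p from 0.00273 to 0.191 over the 15. Sobic.009G188300 (chr9:54058559-54062690, plus strand) went the other way, with 16.5, 13.8 and 15.5 CPM in control and 5.43, 5.82 and 6.02 CPM in moderate libraries. Its log2 difference was -1.40 (SE 0.54, adjusted p = 0.0541), called in 5 of 15 alternative settings with adjusted p from 0.000476 to 0.295 over the 15. In severe libraries it had 3.14, 7.26 and 13.4 CPM, on either side of the moderate values.

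Severe against control, Usp. On this contrast the label was selected, so the values describe the choice. Of the 23 members 17 were called higher and 2 lower in severe, beside 31.6% and 34.9% of all tested genes. The median log2 difference was 2.24, from -2.88 to 8.56, and that of all tested genes was -0.19. The groups did not overlap in 19 of the 23, beside 72.1% of all tested genes. The 17 and the 19 include the 4 members that entered the test through severe libraries, which had to differ.

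The members with the highest severe level carried most of the reads. Sobic.008G124400 reached 3132, 1279.9 and 813 CPM in severe replicates 1 to 3, a mean of 1741 ± 1226 CPM (SD, n = 3), or 1046 CPM without replicate 1, against 50.2 ± 9.70 CPM (SD, n = 3) in control. Per length it had 23.0 FPKM in control, 66.7 FPKM in moderate and 894 FPKM in severe (491 FPKM without replicate 1), the highest of the label in the latter 2 groups. Sobic.004G267500 (chr4:61176781-61180558, minus strand) had 17.9, 17.4 and 12.5 CPM in control, 30.1, 23.6 and 24.0 CPM in moderate and 593, 212 and 124 CPM in severe, a severe mean of 309.7 CPM, or 168 CPM without replicate 1. Every severe value of both genes lay above every other value of the same gene.

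Other members were low or close to the detection limit outside severe soil. Sobic.001G239601 (chr1:24621215-24622883, minus strand) had 10 counts over the control group, 2 over the moderate and 2737 over the severe, which is 0.317, 0.152 and 0.0505 CPM, then 0, 0.0673 and 0 CPM, then 122, 56.2 and 23.5 CPM. Sobic.K013100 (super_139:9141-10848, plus strand, on an unplaced scaffold) had at most 0.303 CPM in control and moderate libraries and 32.6, 28.1 and 8.04 CPM in severe ones. Sobic.004G314400 (chr4:65106284-65108439, plus strand) had at most 0.317 CPM outside severe libraries and 31.9, 6.25 and 19.7 CPM in them. Sobic.001G088600 (chr1:6885004-6885726, plus strand) had 0.406 to 0.657 CPM in control, 0.788 to 1.11 CPM in moderate and 48.9, 16.8 and 12.8 CPM in severe libraries. In all 4 the lowest severe library lay above the highest of the other 6 libraries. For Sobic.001G239601, Sobic.K013100 and Sobic.004G314400, which passed the filter in severe libraries only, this separation follows from the filter.

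Severe against moderate, Usp. This contrast shares the severe libraries with the one above. Of the 23 members 15 rose, 3 fell and 5 were not called, beside 29.6% of all tested genes that rose and 33.6% that fell. The 15 include the 4 members that entered the test through severe libraries, for which no p is given. The median log2 change was 2.24, from -4.17 to 11.14, against -0.20 in all tested genes. Of the highest members, Sobic.008G124400 rose by 3.58 (SE 0.91, adjusted p = 0.000543), or 2.84 without severe replicate 1, and Sobic.004G267500 by 3.58 (SE 0.91, adjusted p = 0.000515), or 2.69 without it. The pooled counts of Sobic.001G239601 in severe were 2464 times those in moderate (95% interval for counting error 681 to 20354). Without moderate replicate 3 this was 1584 times, and without moderate replicate 2, which held both moderate counts, at least 1059-fold against 3 counts over the group.

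Sobic.001G088600, which is low outside severe soil but passed the filter in moderate libraries as well, rose by 4.69 (SE 1.07, adjusted p = 0.000161), or by 3.87 without severe replicate 1. Among members with steady levels in control and moderate leaves, Sobic.009G159400 had means of 12.7, 11.8 and 95.4 CPM in control, moderate and severe and rose from moderate to severe by 3.01 (SE 0.59, adjusted p = 3.28e-05).

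The 3 Usp members that fell from moderate to severe had their highest mean in moderate soil. Sobic.003G051600 (chr3:4667295-4668993, minus strand) had 39.9, 36.5 and 48.5 CPM in control, 88.9, 41.5 and 88.0 CPM in moderate and 22.9, 17.5 and 9.89 CPM in severe libraries. Severe lay below both other groups, which overlapped with each other, and in control this gene had the highest FPKM of the label, 23.8 FPKM. From moderate to severe it fell by 2.12 on the log2 scale (SE 0.59, adjusted p = 0.00126). Sobic.008G103400 had means of 2.54, 7.79 and 1.31 CPM in control, moderate and severe (0.659 CPM in severe without replicate 3) and fell by 2.55 (SE 0.79, adjusted p = 0.00369; 3.50 without severe replicate 3). Sobic.001G397200 had 0.807, 1.98 and 0.0934 CPM (0.0534 CPM in severe without replicate 3) and fell by 4.17 (SE 1.12). No severe library passed the filter for it, so its fall is a description. Sobic.003G356800 and Sobic.003G144700 were called in no contrast, with 1.36 to 5.09 CPM in all 9 libraries.

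**Figure D3:**
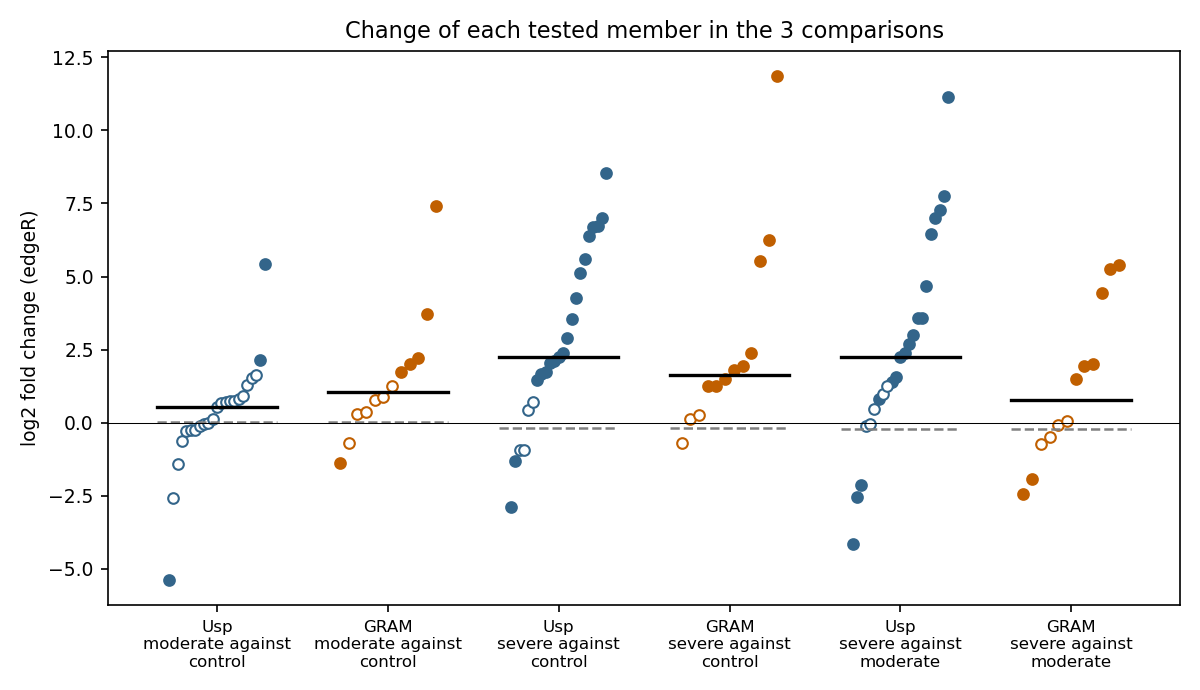
Log2 difference of each tested member (points) for the 3 contrasts, Usp and GRAM side by side; filled points are called at an adjusted p under 0.05 and open points are not, black bars mark the label's median and grey dashed lines the median of all tested genes. Usp members lie mostly near 0 for moderate against control and mostly above 0 for both severe contrasts, while the GRAM median is above 0 in all 3 contrasts, though with total counts as scaling it is -0.07 for severe against moderate.

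Moderate against control, GRAM. The label was selected on this contrast, so its values describe the choice. Of 12 tested members 5 were called higher in moderate, 1 lower and 6 neither, beside the same 8.94% and 8.17% of all tested genes. With total counts as scaling 6 were higher and 0 lower, beside 16.6% and 3.15% of all tested genes. With TMM the median log2 difference was 1.06, from -1.38 to 7.43, against 0.015 in all tested genes. The 5 were Sobic.001G212000, Sobic.001G212100, Sobic.004G225900, Sobic.001G098700 and Sobic.002G378800, and in 11 of the 12 members the 2 groups did not overlap, beside 55.9% of all tested genes.

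Among those 5 the severe level took different places. Sobic.002G378800 had 16.0, 17.9 and 12.8 CPM in control, 53.7, 47.4 and 55.5 CPM in moderate and 86.4, 44.7 and 31.2 CPM in severe libraries, so severe lay above control and on either side of moderate. Sobic.001G098700 (chr1:7570839-7572698, plus strand) had 5.61, 5.02 and 5.56 CPM in control, 32.4, 14.2 and 18.7 CPM in moderate and 20.8, 16.5 and 24.2 CPM in severe. Sobic.004G225900 (chr4:57603287-57605024, minus strand) had 5.40, 3.25 and 5.36 CPM in control, 24.5, 18.9 and 21.4 CPM in moderate and 19.7, 7.47 and 12.2 CPM in severe. All 3 had both stressed groups above control, and in each moderate and severe libraries overlapped.

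Severe against control, GRAM. Of the 12 members 9 rose, none fell and 3 were not called, beside 31.6% and 34.9% of all tested genes. The 9 include Sobic.001G212000, which has the largest change and passed the filter in no control library, so its value is a description. They also include Sobic.001G212100, whose call was lost in 11 of 15 alternative settings. The median log2 change was 1.64, from -0.70 to 11.87, against -0.19 in all tested genes, and 11 of 12 changes were above 0. The 3 genes above rose by 1.80 (SE 0.52, adjusted p = 0.00171) for Sobic.002G378800, by 1.92 (SE 0.52, adjusted p = 0.000819) for Sobic.001G098700 and by 1.49 (SE 0.50, adjusted p = 0.00642) for Sobic.004G225900. Control is the group that this contrast shares with the selecting one.

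A further 4 GRAM members rose in severe soil without having been called in moderate. Sobic.008G095000 (chr8:44876590-44879574, minus strand) had 18.9, 19.8 and 15.3 CPM in control, 24.4, 20.9 and 20.7 CPM in moderate and 1685, 484 and 343 CPM in severe libraries. Its severe mean was 837 ± 738 CPM (SD, n = 3), or 413 CPM without replicate 1, and per length it went from 5.84 to 7.13 to 308 FPKM (137 FPKM without severe replicate 1), the highest GRAM level under severe stress. The log2 change from control was 5.54 (SE 1.24, adjusted p = 0.000101), or 4.51 without severe replicate 1.

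Sobic.006G119600 (chr6:48650424-48655514, plus strand) had 1.85, 1.22 and 0.202 CPM in control, 2.74, 1.45 and 1.77 CPM in moderate and 96.4, 70.9 and 84.9 CPM in severe libraries, with severe replicate 1 close to the other severe values. It rose by 6.26 (SE 1.35, adjusted p = 6.3e-05) from control, or by 6.86 without control replicate 1. Sobic.010G086200 (chr10:7412258-7416132, plus strand) had 7.78 to 8.14 CPM in control, 10.1 to 10.5 CPM in moderate and 60.4, 28.6 and 35.6 CPM in severe, and rose by 2.38 (SE 0.55, adjusted p = 0.000139). Sobic.001G477300 (chr1:74977098-74979390, minus strand), which had the highest FPKM of the label in control (10.8 FPKM), had 29.2, 24.8 and 22.4 CPM in control, 14.7, 16.0 and 16.7 CPM in moderate and 87.8, 49.6 and 44.1 CPM in severe, and rose by 1.25 (SE 0.39, adjusted p = 0.00335). In these 4 genes every severe library lay above all control and moderate ones, and in the last the moderate libraries lay below the control ones.

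Severe against moderate, GRAM. Here 6 of 12 members rose, 2 fell and 4 were not called, beside 29.6% and 33.6% of all tested genes. With total counts as scaling 5 rose and 5 fell, beside 16.7% and 45.2% of all tested genes, so the split between directions depends on the scaling. The median log2 change was 0.78, from -2.44 to 5.40, against -0.20 in all tested genes, and with total counts it was -0.07 against -0.98. The largest changes were in Sobic.006G119600, which rose by 5.40 (SE 1.2, adjusted p = 0.000129), and Sobic.008G095000, which rose by 5.25 (SE 1.2, adjusted p = 0.000163), or 4.22 without severe replicate 1. Sobic.010G086200 rose by 2.01 (SE 0.49, adjusted p = 0.00037) and Sobic.001G477300 by 1.93 (SE 0.48, adjusted p = 0.000435).

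Sobic.002G306700 (chr2:68137505-68144641, plus strand) was called in no contrast, with 13.9, 15.5 and 15.7 CPM in control, 27.0, 24.2 and 25.5 CPM in moderate and 17.4, 23.2 and 13.4 CPM in severe libraries. Its moderate values lay above its control ones, a difference called in 6 of 15 alternative settings and given as a description. All its severe values lay under its moderate ones, a log2 difference of -0.50 (adjusted p = 0.0849) that was called with total counts (-1.32) and once severe replicate 2 was left out (-0.74), with adjusted p from 0.00646 to 0.271 over the 15 alternatives. Sobic.004G225900 was lower in severe than in moderate by a log2 difference of -0.72 (adjusted p = 0.108), which was called in 3 of 15 alternative settings, among them leaving out severe replicate 1 (-1.14) and total counts (-1.63), with adjusted p from 0.00276 to 0.261.

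Some members lie next to each other in the genome. With no other gene of the table between them and on the same strand stood 3 GRAM pairs, Sobic.001G212000 with Sobic.001G212100 (5946 bases apart), Sobic.004G225800 with Sobic.004G225900 (7537 bases) and Sobic.006G154400 with Sobic.006G154500 (3940 bases), and 1 Usp pair, Sobic.008G124301 with Sobic.008G124400 (10787 bases). In the Usp pair the first gene had no count in any library while the second was the Usp member with the highest severe level, and in the pair on chromosome 4 the first gene was removed as too low. The sources used here do not say how reads matching more than 1 gene were counted, so values of neighbouring copies that resemble each other are uncertain.

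The GRAM pair on chromosome 1 was highest in different groups. Sobic.001G212000 (chr1:19525855-19527266, plus strand) had 0.159, 0 and 0 CPM in control, 9.998, 18.5 and 1.17 CPM in moderate and 430.4, 88.9 and 125 CPM in severe libraries. Pooled over each group these are 3, 826 and 8343 counts, so moderate was 192 times control (95% interval for counting error 65.5 to 933) and severe 3491 times control (1194 to 16933). No control library passed the filter for this gene, so these ratios are descriptions. All 3 control counts came from replicate 1, and without it moderate was at least 130-fold and severe at least 2361-fold higher, taking 3 counts over the group. The first ratio was 127 without control replicate 2 or 3 and 99.5 without moderate replicate 2, and the second was 2066 without severe replicate 1 and 2308 to 2313 without control replicate 3 or 2. Its log2 change from moderate to severe was 4.44 (SE 1.41, adjusted p = 0.00438), or 3.43 without severe replicate 1 and 5.22 without moderate replicate 2.

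Sobic.001G212100 (chr1:19533213-19534376, plus strand) had 0.741, 1.62 and 1.36 CPM in control, 21.7, 18.7 and 8.86 CPM in moderate and 2.86, 1.71 and 4.46 CPM in severe libraries. Moderate lay above both other groups, and the gene fell from moderate to severe by 2.44 on the log2 scale (SE 0.72, adjusted p = 0.0022). Its change from control to severe, 1.27 (SE 0.58, adjusted p = 0.0456), was not called in 11 of 15 alternative settings (adjusted p from 0.0177 to 0.174). On the FPKM scale the first gene of the pair had group means of 0.0364, 6.78 and 167 in control, moderate and severe (0 without control replicate 1, 3.86 without moderate replicate 2 and 74.4 without severe replicate 1), and the second 1.03, 13.6 and 2.66, so the second was higher in control and moderate and the first in severe.

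The pair on chromosome 6 was low throughout. Sobic.006G154500 (chr6:51423542-51424842, minus strand) had 4.29, 2.49 and 2.48 CPM in control, 1.08, 1.51 and 0.936 CPM in moderate and 3.14, 2.40 and 4.51 CPM in severe libraries, so moderate lay below the other groups. It was the 1 GRAM member called lower in moderate than control, a call lost in 9 of 15 alternative settings, and rose from moderate to severe by 1.51 (SE 0.54, adjusted p = 0.0106), not called with total counts (0.73, with adjusted p over the alternatives from 0.000398 to 0.231). Its neighbour Sobic.006G154400 (chr6:51418052-51419601, minus strand) had 0.794, 0.355 and 0.758 CPM in control, 1.37, 1.61 and 1.57 CPM in moderate and 0.0952, 0.214 and 0.810 CPM in severe. It fell from moderate to severe by 1.95 (SE 0.80, adjusted p = 0.0269), or by 3.12 without severe replicate 3, and the call was lost without moderate replicate 2 or 3 or severe replicate 1 or 2 (adjusted p over all alternatives from 0.0034 to 0.0845).

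**Figure D4:**
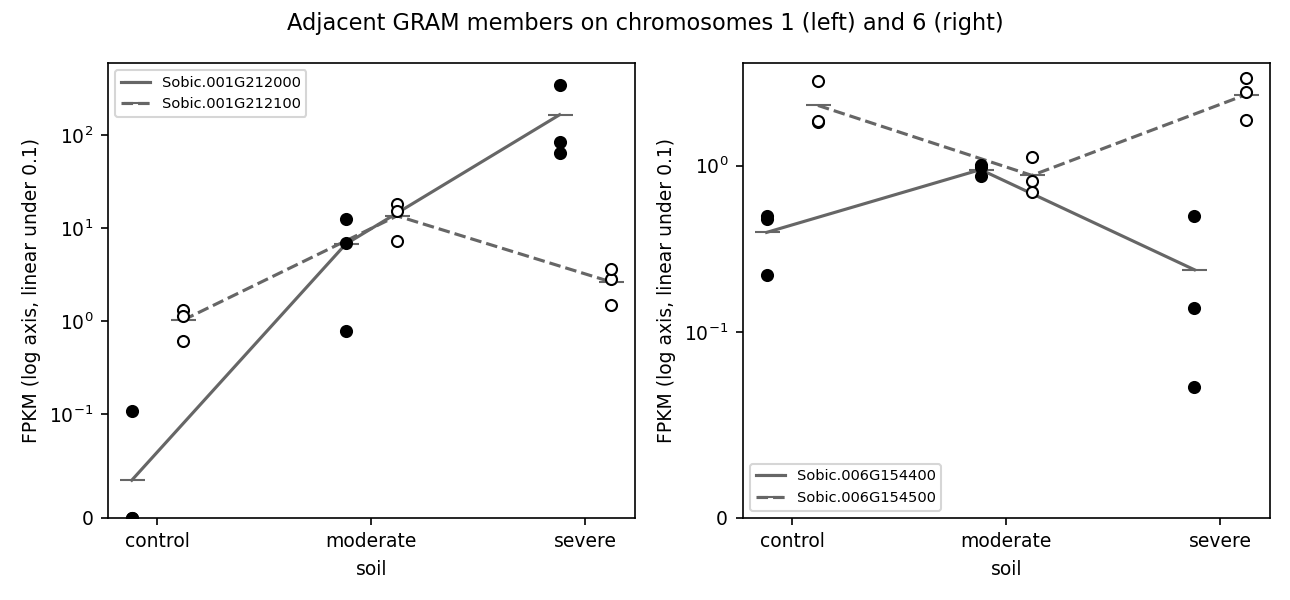
Levels of 2 pairs of neighbouring GRAM genes in each library, in the FPKM deposited by the authors on an axis that is linear near 0 and logarithmic above; filled points are the first gene of a pair, open points the second and horizontal bars the group means, joined by lines. In the pair on chromosome 1 the first gene climbs from 0.0364 to 167 FPKM (74.4 without severe replicate 1) while the second peaks at 13.6 FPKM in moderate, and in the pair on chromosome 6 the first gene lies below the second in control and severe and within its spread in moderate.

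Other families of stress genes, fixed as a list of labels for comparison, are given by counts. From moderate to severe, 29.6% of all tested genes rose and 33.6% fell. In this contrast 13 of 20 tested HSP70 chaperone genes rose and 0 fell, and 14 of 22 heat shock factor genes (HSF_DNA-bind) rose and 4 fell. Of 73 DnaJ co-chaperone genes 30 rose and 17 fell, and of 71 PP2C phosphatase genes, a family that includes negative regulators of abscisic acid signalling, 31 rose and 18 fell. Among transcription factors, 27 of 68 NAM genes rose and 19 fell, and 22 of 60 bZIP_1 genes rose and 17 fell. Usp, with 15 of 23 higher, and GRAM, with 6 of 12, are set beside these without a test of the difference. In the authors' deposited table, adjusted p-values under 0.05 marked 14 Usp members as higher and 3 as lower in severe than in moderate, and 6 GRAM members as higher and 2 as lower. For moderate against control the authors' deposited table marked more members than the test used here, 8 Usp members as higher and 3 as lower, and 7 GRAM members as higher and 2 as lower. For severe against control the authors' deposited table marked 17 Usp members as higher and 2 as lower, and 9 GRAM members as higher and 0 as lower. The authors' adjusted p-values were listed for 24 or 25 Usp and 13 or 14 GRAM members, depending on the contrast. The share of all genes that they mark was not counted, so these counts have no background beside them and describe the members only.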

How the data were processed

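The authors sequenced leaf RNA of 3 groups with 3 replicates each. Reads were aligned with HISAT2 2.0.5 and compared with DESeq2 1.20.0, per the submitters' processing notes; the counter, build, annotation and strand setting were not given in the sources used here. Raw counts deposited by the authors were used for every test, and FPKM values of the authors, computed as the count over gene length times a constant per library, to compare levels between genes. For all 42 members that length is the genomic span, introns included, so FPKM understates genes with long introns. Adjusted p-values deposited by the authors, with the sign of their deposited log2 fold changes, served only for counts of the authors' own calls, and start and end coordinates deposited in the table for positions.

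Tests were run with edgeR 4.0.16 and limma 3.58.1 under R 4.3.3: filterByExpr kept 22356 of 35281 genes, libraries were scaled by TMM, and a quasi-likelihood model with 1 mean per group was fitted to all 9 libraries (2-sided, Benjamini-Hochberg adjustment over all tested genes, threshold 0.05). An SE is the size of the log2 change over the normal quantile that its p corresponds to. Without molecular identifiers reads are not independent molecules, and intervals and floors cover counting error only. Replicates differed by more than counting noise in every group (chi-square per degree of freedom 17.3 to 298).

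The members, lists and tests were chosen with earlier results of these data known. Values in all 9 libraries were given for members with a mean of at least 5 CPM among the 4 with the largest rise or fall of their label in a contrast, and for the 3 with the highest FPKM; other members were named after their values were seen. Alternatives were DESeq2 1.42.0, RLE size factors, total counts, no filter, the 6 libraries compared alone, a replicate block and leaving out each library. Promoter and protein sequences were not used here.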

Additional observations from a re-analysis of the deposited data

How the results depend on the processing

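Of the 6 counts of called members, 5 stayed within 1.5 times their value under every alternative run, directions not considered. They were 8 to 9 for GRAM and 17 to 20 for Usp in severe against control, and 7 to 10 and 15 to 19 in severe against moderate. Beside them, 24.6% to 33.3% of all tested genes were higher and 26.6% to 35.3% lower in severe against control. In severe against moderate these shares were 16.7% to 31.5% and 26.1% to 45.2%. GRAM in moderate against control ran from 4 to 9 around 6, at that limit on either side. The 4, without control replicate 1, stood beside 3% of all tested genes higher and 3.45% lower. The 9, with the 6 libraries alone, stood beside 22.8% and 22.2%. With total counts GRAM in severe against moderate went from 6 higher and 2 lower to 5 and 5. The count for Usp in moderate against control, 3 members, did not stay within the limit. It was 7 with total counts as scaling, 10 with the 6 libraries alone, 6 with DESeq2 and 5 with the replicate block. With 1 library left out it was 2 to 8. The share of all tested genes moved as well. It was 16.6% higher and 3.15% lower with total counts, and 22.8% and 22.2% with the 6 libraries. With DESeq2 it was 12.2% and 11.6%, and with the replicate block 8.45% and 7.35%. With 1 library left out it was 3% to 16% higher and 2.99% to 16.1% lower. The cause of the change in the Usp count was not tested. Total counts moved the median log2 change of all tested genes from 0.015 to 0.49 (moderate against control), from -0.19 to -0.49 (severe against control) and from -0.20 to -0.98 (severe against moderate). The median of the GRAM members in severe against moderate went from 0.78 to -0.07. Under the same scaling Sobic.004G306400 (Usp), called at 0.80 in severe against moderate, went to -0.12. Same-numbered pairs of libraries deviated together more often than others: r exceeded 0.1 in 6 of 9 such pairs (-0.0281 to 0.255) and in 3 of 18 others (-0.269 to 0.137). Whether same-numbered libraries share an origin was not tested. The labels do not say that replicate numbers mark a shared origin, so the main test did not treat the samples as paired. A fit with a replicate block is given beside it. With the replicate block 5 GRAM members were called higher and 0 lower in moderate against control, beside 8.45% and 7.35% of all tested genes. In severe against control 8 GRAM members were higher and 0 lower, and 16 Usp members higher and 3 lower, beside 30.2% and 35.1%. In severe against moderate 6 GRAM members were higher and 3 lower, and 15 Usp members higher and 3 lower, beside 28.4% and 33.9%. Levels per coding length were not run, as no protein table was used here. Members under about 0.5 CPM in a group rest on few reads there.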
